A study of Sus scrofa with 6 samples.

Results

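FOS, EGR1, ATF3, NR4A3 and BTG2 are 5 immediate early genes, taken here as the 5 rows, of 19465 genes listed, that carry these symbols in the tables of 3 tissues. Those tissues were ovary, pituitary and hypothalamus of primiparous Landrace x Large White sows, which have had a single litter, and RNA was sequenced as 1 library for each tissue and state. The states were normal estrus and an anestrus that the labels tie to inactive ovaries, and the labels give 3 sows per state without saying whether their RNA was pooled. No treatment is named for either state, and age, the hour of sampling and the stage within estrus are not given in the sources used here. The comparison asks how the anestrous library of a tissue differs from the estrous one. With 1 library in each group no difference below has a replicate check, no test of the states was made within a tissue, and "lower" or "higher" describes the anestrous library relative to the estrous library.

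Immediate early genes are transcribed within minutes of a stimulus, without new protein synthesis, because the factors that switch them on are already present in the resting cell. Growth factors, hormones and membrane depolarisation reach their promoters through the MAP kinase and cyclic AMP pathways, by way of serum response factor with its ELK partners and by way of CREB. Their mRNAs are short-lived, so their level follows recent signalling. FOS is a subunit of the dimeric factor AP-1. ATF3 is a related leucine zipper protein, induced by stress, that often represses transcription. EGR1 is a zinc finger factor, which in gonadotrophs takes part in transcription of the luteinizing hormone beta subunit gene. NR4A3 is an orphan nuclear receptor, and BTG2 is an antiproliferative protein that recruits the deadenylase complex to mRNAs. In the brain FOS is widely used as a mark of recently active neurons, and in granulosa cells several of these genes respond to the gonadotropin surge.

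Reads assigned to genes numbered 15314325 to 17384789 per library, and the 10 genes with most reads took 8.55% to 35.9% of them. Levels below are given as RPM, a gene's reads divided by its library's total and scaled to a common depth, with no correction for gene length. Marker sums for pituitary hormones, neurons and granulosa cells were each highest in the labelled tissue, which does not check the region taken within it. Pituitary hormone genes summed to 248751 and 259505 RPM in the estrous and anestrous pituitary and to at most 458 elsewhere. Neuron markers summed to 4521 and 5869 in the hypothalamus, to 769.5 and 623.9 in the pituitary and to 5.75 and 14.2 in the ovary. Thalamus and hypothalamic peptide markers differed between the hypothalamic libraries, as given below. Granulosa cell markers summed to 12541 and 2293 in the ovary and to at most 146 elsewhere. These are bulk tissues, in which fewer cells of a type and less RNA per cell cannot be told apart.

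All 5 genes were detected in all 6 libraries, with at least 52 reads in each. FOS (ENSSSCG00000002383) had its highest level in the estrous ovary, at 636 RPM (95% interval 624 to 649). Its anestrous ovary library followed at 127.5, the estrous and anestrous pituitary stood at 104 and 99.6, and the hypothalamus was lowest, at 78.0 in estrus and 41.9 in anestrus. Only the intervals of the pituitary libraries overlapped among neighbours in this order. The intervals, exact Poisson ones here, cover counting error only.

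EGR1 (ENSSSCG00000014336) spanned the widest range of the 5 genes. It reached 1104 RPM in the estrous ovary and 15.1 in the anestrous hypothalamus, a 73.0-fold range, with 37.6 in the estrous hypothalamus. Between these ends the anestrous pituitary, the anestrous ovary and the estrous pituitary stood close together at 135, 130 and 121, and the intervals of neighbours among them overlapped. The range was 62.2-fold with totals that left out the most abundant genes and 65-fold with a trimmed mean over the 6 libraries.

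BTG2 (ENSSSCG00000028322) followed the same outline, with 417 RPM in the estrous ovary. It stood at 101 in the anestrous ovary and at 98.2 and 95 in the estrous and anestrous pituitary, where intervals of neighbours overlapped, and at 31.0 and 12.5 in the hypothalamus. ATF3 (ENSSSCG00000015595) was also highest in the ovary, at 63.3 in estrus and 38.8 in anestrus, followed by 15.4 in the estrous hypothalamus. The estrous pituitary (10.2), the anestrous hypothalamus (6.01) and the anestrous pituitary (2.99) came last, and no intervals of neighbours overlapped.

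NR4A3 (ENSSSCG00000005385) was the exception to the ovarian peak. Its highest level, 16.8 RPM, was in the estrous pituitary, followed by 12.3 in the estrous hypothalamus. The other 4 libraries lay between 4.14 and 5.42, and neighbours among them had overlapping intervals. Tables were normalised separately by tissue, so the order across tissues is a description. With totals that left out the most abundant genes, or with a trimmed mean over the 6 libraries, each gene kept its highest library, but the anestrous ovary came below both pituitary libraries for EGR1 and BTG2 (for FOS with the first of these totals only), and the lowest library for NR4A3 was no longer the anestrous pituitary.

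**Figure D1:**
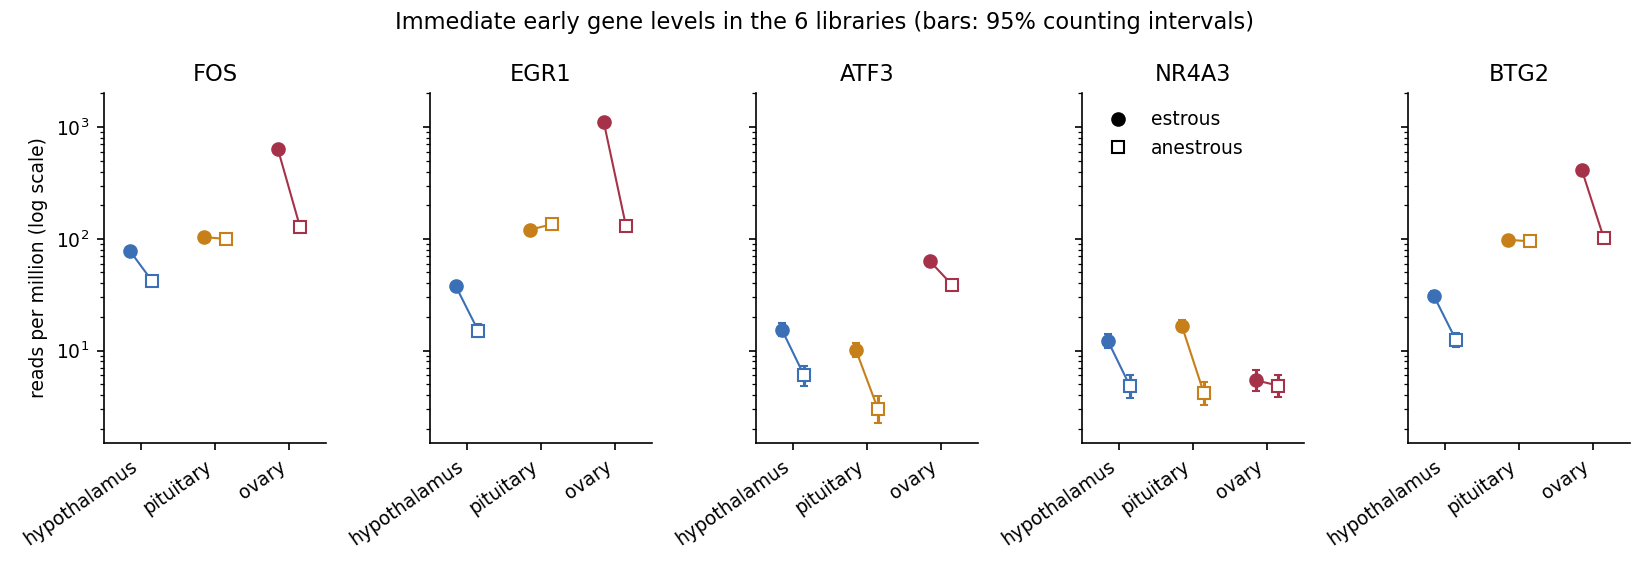
RPM (log axis) of the 5 genes in the estrous (filled circles) and anestrous (open squares) library of each tissue, with 95% Poisson intervals as bars and a line joining the libraries of a tissue. FOS, EGR1, ATF3 and BTG2 peak in the estrous ovary, and NR4A3 peaks in the estrous pituitary at 16.8.

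In the hypothalamus all 5 genes were lower in the anestrous library, and 4 of the 5 were at least 2-fold lower. A gene counts as 2-fold different where its mean normalised count is at least 50 and the log2 fold, with a pseudocount of 1, is at least 1 in size. By that rule 1.04% of 11390 hypothalamic genes were lower (119 genes) and 1.29% were higher (147 genes), and equal library totals gave 167 and 113. Of those 11390 genes, 48.45% had a log2 fold below 0. Each of the 5 genes passed the floor of 50 in every tissue. They and the lists below were chosen with earlier results of these data known. The share of all genes beside a count is therefore a description and no test.

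In the hypothalamus ATF3 had normalised counts of 232 in estrus and 96.5 in anestrus, from 236 and 95 reads, and was 2.41-fold lower (95% counting interval 1.89 to 3.09). NR4A3 stood at 185 and 77.2 (188 and 76 reads) and was 2.40-fold lower (1.83 to 3.17). BTG2 had 468 and 200.1 (475 and 197 reads) and was 2.34-fold lower (1.97 to 2.77). The estrous library was the higher one for each of these, by nearly the same factor. EGR1 had 566 and 243 (575 and 239 reads) and was 2.33-fold lower (2.0 to 2.72). FOS had 1175 and 674 (1194 and 663 reads) and was 1.75-fold lower (1.59 to 1.92), inside the 2-fold limit.

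Set against each other, which removes the scaling of the libraries, 4 of 10 pairs of genes had ratios of ratios whose interval left out 1, and each of these held FOS. FOS was less reduced than EGR1 by a factor of 1.34 (1.11 to 1.60) and less than ATF3 by 1.38 (1.06 to 1.8). For EGR1 against BTG2 the factor was 1.00 (0.796 to 1.26). These intervals are not adjusted for the number of pairs. Ordered by log2 fold from the lowest, ATF3, NR4A3, BTG2 and EGR1 were at places 57, 61, 65 and 66 of 11390 genes, and FOS was at place 234.

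Adjusted p in the authors' deposited table, which compares the libraries and not the states, was 0.0432 for EGR1, 0.0689 for BTG2, 0.295 for ATF3, 0.365 for FOS and 0.449 for NR4A3. Of all hypothalamic genes there, 0.739% had an adjusted p of at most 0.05. Beside the lower counts of the 5 genes, neuron markers were higher in 8 of 8 genes (4521 to 5869 RPM in sum, each within 2-fold). Of all hypothalamic genes over the floor, 48.45% had a log2 fold below 0. Of 7 thalamus markers over the floor, 4 were at least 2-fold higher, and that list summed to 338 in estrus and 631 in anestrus. Astrocyte markers summed to 17885 and 12395, mostly from GFAP (221980 and 147723 reads, log2 fold -0.54), with a median log2 fold of -0.09. AQP4 (-0.10), GJA1 (-0.09), SLC1A2 (-0.07) and SLC1A3 (0.17) differed little. Oligodendrocyte markers summed to 17174 and 12527 (median -0.39), and no marker of these lists was at 0. Genes of hypothalamic peptide neurons diverged more: 4 of 7 over the floor were at least 2-fold lower and 2 were higher, with a median log2 fold of -2.50. AVP (vasopressin, -4.93), OXT (oxytocin, -2.76), POMC (-2.61) and KISS1 (-2.50) were the lower ones, and HCRT (orexin, 1.34) and PMCH (1.01) the higher ones. The part of these markers in the result was not tested.

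In the pituitary the 5 genes divided. NR4A3 and ATF3 were at least 2-fold lower, whereas FOS, EGR1 and BTG2 stayed within the 2-fold limit. By the same rule 1.90% of 10720 pituitary genes were lower (204) and 1.20% were higher (129), and equal totals gave 277 and 98. NR4A3 had a normalised count of 277 in estrus and 74.1 in anestrus (285 and 72 reads) and was 3.74-fold lower (2.88 to 4.91). ATF3 had 168 and 53.5 (173 and 52 reads) and was 3.14-fold lower (2.29 to 4.37).

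FOS had 1718 and 1782 in the pituitary (1769 and 1731 reads), a ratio of 1.04 (0.970 to 1.11). BTG2 had 1623 and 1700 (1671 and 1651 reads), a ratio of 1.05 (0.978 to 1.12). Neither interval left out equal levels, and with equal totals both ratios were just under 1 (0.958 for FOS and 0.967 for BTG2). EGR1 had 1993 and 2420 (2052 and 2351 reads) and was 1.21-fold higher (1.14 to 1.29), or 1.12-fold higher (1.06 to 1.19) with equal totals.

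The gap between the divisions did not depend on scaling. Relative to FOS, NR4A3 was lower by a factor of 3.87 (2.95 to 5.13) and ATF3 by 3.26 (2.36 to 4.56). Relative to EGR1 the factors were 4.53 (3.46 to 6.0) for NR4A3 and 3.81 (2.76 to 5.33) for ATF3. Of the 10 pairs 8 had intervals that left out 1. The 2 that did not were ATF3 over NR4A3, at 1.19 (0.777 to 1.81), and FOS over BTG2, at 0.990 (0.90 to 1.09). EGR1 was higher relative to FOS by 1.17 (1.07 to 1.28) and relative to BTG2 by 1.16 (1.06 to 1.27). NR4A3 was at place 27 and ATF3 at place 51 of 10720 genes ordered from the lowest log2 fold.

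In the authors' deposited table NR4A3 had an adjusted p of 0.0177 and ATF3 one of 0.213. FOS, EGR1 and BTG2 had an adjusted p of 1, and 0.635% of all pituitary genes there were at or under 0.05. Of 6 pituitary hormone genes 1 was at least 2-fold lower, POMC (808312 and 328682 reads, log2 fold -1.22), and 1 was higher, FSHB (8442 and 32208 reads, 2.02), while the other 4 were within 2-fold. Heat shock genes, which respond to cell stress, were lower in 6 of 6 genes over the floor (median log2 fold -0.47, 1 at least 2-fold lower). They summed to 2517 and 1829 RPM, and 48.65% of all pituitary genes over the floor were below 0. In the hypothalamus 2 of 6 heat shock genes were lower and 4 higher (median 0.20), and in the ovary 4 were lower and 2 higher (median -0.29). Pituitary smooth muscle markers were higher in 3 of 3 over the floor (median 0.83, sums of 90 and 139), and endothelial markers in 4 of 5 (median 0.39, sums of 259.5 and 338), each within 2-fold. The part of these genes in the result was not tested.

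In the ovary the division was the reverse. FOS, EGR1 and BTG2 were at least 2-fold lower, ATF3 was within 2-fold and NR4A3 stood at nearly the same level in both libraries. The ovarian libraries differed more widely than those of the other tissues: 7.95% of 10902 genes were at least 2-fold lower (867) and 12.3% were higher (1343), and equal totals gave 1242 and 1033. A count of 3 of 5 genes lower is read against that larger share.

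EGR1 had a normalised count of 16423 in the estrous ovary and 2220 in the anestrous one (17096 and 2133 reads) and was 7.40-fold lower (7.07 to 7.74). FOS had 9465 and 2182 (9853 and 2096 reads) and was 4.34-fold lower (4.14 to 4.55). BTG2 had 6211 and 1733 (6466 and 1665 reads) and was 3.58-fold lower (3.40 to 3.78). Each had at least 1665 reads in either ovarian library, so their counting intervals are narrow. They do not cover the choice of scaling: equal totals gave 8.51 for EGR1, 4.99 for FOS and 4.12 for BTG2, outside those intervals. EGR1, FOS and BTG2 were at places 34, 132 and 212 of 10902 genes from the lowest log2 fold.

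ATF3 had 942 and 664 in the ovary (981 and 638 reads) and was 1.42-fold lower (1.28 to 1.57). With equal totals it was 1.63-fold lower (1.48 to 1.81). NR4A3 had 80.7 and 83.3 (84 and 80 reads), a ratio of 1.03 (0.75 to 1.42), which became 0.897 (0.652 to 1.23) with equal totals. At that depth a difference of NR4A3 within this interval was not detectable. ATF3 was at place 2160 and NR4A3 at place 5657 in the same order of genes.

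All 10 pairs of the 5 genes had intervals that left out 1 in the ovary. EGR1 was lower than FOS by a further factor of 1.71 (1.60 to 1.82) and lower than BTG2 by a further 2.06 (1.92 to 2.21). Against NR4A3, EGR1 was lower by a further 7.63 (5.53 to 10.5) and FOS by a further 4.48 (3.24 to 6.18). The closest pair was FOS and BTG2, with a factor of 1.21 (1.13 to 1.30).

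No member had an adjusted p of at most 0.05 in the authors' deposited table of the ovary, and 0.676% of all its genes did. The values were 0.265 for EGR1, 0.563 for FOS, 0.669 for BTG2 and 1 for ATF3 and NR4A3. Cell type markers also differed between the ovarian libraries, some lower and some higher, while the 5 endothelial markers stayed within 2-fold. Of all ovarian genes over the floor, 48.74% had a log2 fold below 0. Granulosa cell markers were lower in 7 of 7 genes, 6 of them at least 2-fold, and summed to 12541 and 2293 RPM. Theca and luteal cell markers were at least 2-fold lower in 4 of 5, with STAR, the cholesterol transporter of steroid synthesis, at a log2 fold of -4.56. The fifth, the steroid enzyme gene HSD3B1, was higher (10245 and 49378 reads, log2 fold 2.38), and the list summed to 8624 and 3497. Oocyte markers were lower in 4 of 4 over the floor, 3 of them at least 2-fold (143 and 45.4). Of 5 smooth muscle markers 2 were at least 2-fold lower, ACTG2 (-2.44) and DES (-2.33), and that list summed to 6921 and 4638. Macrophage markers were at least 2-fold higher in 5 of 7 (667 and 1209), and the 3 neutrophil markers found were higher in 3 of 3 (1.49 and 306). None of these markers was at 0 in both libraries, and their part in the result was not tested.

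**Figure D2:**
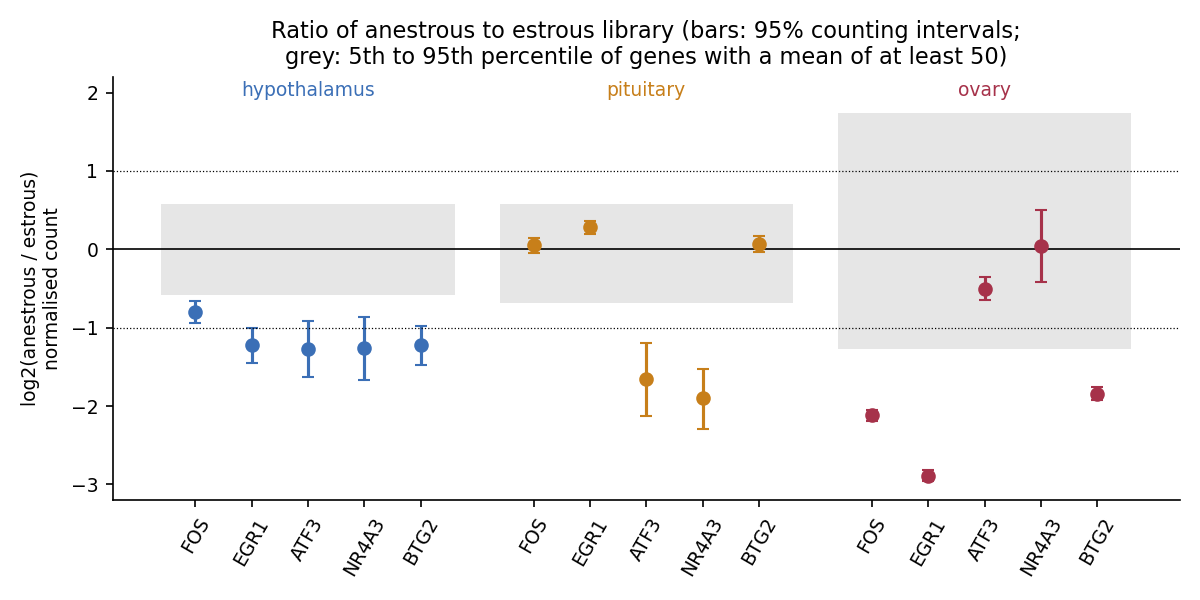
Log2 ratio of the anestrous to the estrous normalised count, without a pseudocount, for the 5 genes in each tissue, with 95% counting intervals as bars, dotted lines at 2-fold and a grey band from the 5th to the 95th percentile of all genes with a mean of at least 50. All 5 genes lie below the band in the hypothalamus, ATF3 and NR4A3 do so in the pituitary, and FOS, EGR1 and BTG2 do so in the ovary.

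**Figure D3:**
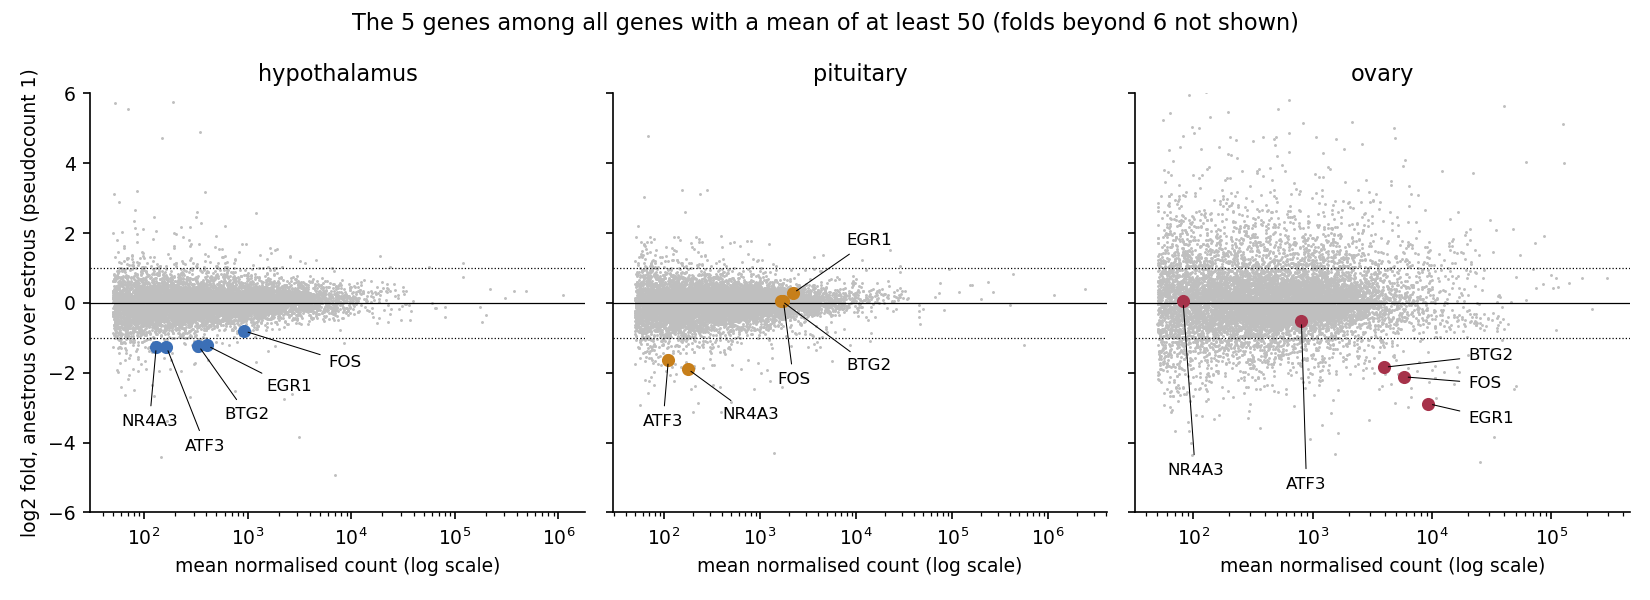
Log2 fold with a pseudocount of 1 (vertical axis) against the mean normalised count of both libraries (log axis) for every gene with a mean of at least 50 (grey) and the 5 genes (coloured and named). The ovarian cloud is wider than the others, and EGR1, FOS and BTG2 lie at its lower edge among genes of high count.

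The number of EGR1 reads per FOS read is read between libraries only, since the genes differ in length. It was 0.482 (0.435 to 0.532) in the estrous and 0.360 (0.310 to 0.419) in the anestrous hypothalamus. In the pituitary it was 1.16 (1.09 to 1.24) and 1.36 (1.28 to 1.45), and in the ovary 1.74 (1.69 to 1.78) and 1.02 (0.958 to 1.08). EGR1 was thus lower relative to FOS in the anestrous library of hypothalamus and ovary and higher relative to FOS in that of the pituitary.

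BTG2 had 0.398 reads per FOS read in the estrous hypothalamus and 0.297 in the anestrous one. The pituitary had 0.945 and 0.954, and the ovary 0.656 and 0.794. Between the states BTG2 kept closer to FOS than EGR1 did in the pituitary (a factor of 1.01 against 1.17) and in the ovary (1.21 against 1.71), but not in the hypothalamus (1.34 for both). NR4A3 reads per FOS read ranged most. The estrous and anestrous values were 0.158 and 0.115 for hypothalamus, 0.161 and 0.0416 for pituitary, and 0.00853 and 0.0382 for ovary.

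Distances between genes were taken over the 3 log2 folds (hypothalamus, pituitary, ovary), of each gene to 8486 other named genes, all with a mean of at least 50 in every tissue. FOS and BTG2 lay 0.50 apart, FOS and EGR1 0.90 and EGR1 and BTG2 1.07, while ATF3 and NR4A3 lay 0.61 apart. Ordered by distance from FOS, BTG2 was at place 11 and EGR1 at place 75 of 8486 genes. Ordered by distance from BTG2, FOS was at place 7 and EGR1 at place 81. From FOS to NR4A3 the distance was 2.94 and from EGR1 to NR4A3 it was 3.65. The gene nearest to EGR1 was DEUP1 (0.84), then FOS and MSI1 (0.95), and the gene nearest to NR4A3 was LYPLAL1 (0.59), then ATF3 and OAS1 (0.74).

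For FOS the nearest genes were PGM5 (0.25), MSI1 (0.34) and DNAH10 (0.38). For BTG2 they were AGPAT2 (0.35), ALDH1A1 (0.39) and ENO3 (0.39), and for ATF3 they were TOP2A (0.45), OAS1 (0.48) and TMP-SLA-2 (0.53). These distances rest on 3 values each and carry no test. No member was at least 2-fold lower in all 3 tissues, as 4 of 9349 genes over the floor everywhere were.

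Around the 5 genes, 63 further genes were listed by role, of which 49 were found by name. They are immediate early and feedback genes, together with NAB corepressors, the BTG and TOB family and the deadenylase subunits that family binds. The counts below cover all of them, and these lists too were chosen with earlier results of these data known. Over the floor, 4 of 38 were at least 2-fold lower in the hypothalamus and none was higher, with a median log2 fold of -0.28, where 1.04% of all genes were lower. These 4, MAFF, CYR61, TNFAIP3 and DUSP2, had log2 folds of -1.19 to -1.02 and mean normalised counts of 52.7 to 115. All lie under a floor of 200, at which 29 of all hypothalamic genes were lower. In the pituitary 11 of 39 were lower and 1 was higher (median -0.53), against 1.90% and 1.20% of all genes. In the ovary 6 of 42 were lower and 9 were higher (median 0.07, or -0.13 with equal totals), against 7.95% and 12.3% of all genes. The median of all genes was 0.01 in the hypothalamus and the pituitary and 0.02 in the ovary. Equal totals shifted the log2 folds by -0.09, -0.12 and -0.20 in these tissues. They left the counts over these lists as they were except in the ovary, where 7 were lower and 8 higher.

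Among AP-1 subunits other than FOS and ATF3, JUN and JUNB were within 2-fold in every tissue. In the hypothalamus JUNB had a log2 fold of -0.64 and JUN one of -0.36, and in the pituitary JUN was at -0.04 (3321 and 3044 reads) and JUNB at 0.02. FOSL2 gave 88 and 12 reads in the pituitary, where its mean lay just under the floor, and was 6.92-fold lower (3.77 to 13.9). In the ovary, where FOS was lower, 3 of the 7 AP-1 genes over the floor were at least 2-fold higher, against 12.3% of all genes. FOSL1, a Fos family gene, gave 10 and 215 reads and was 23.3-fold higher (12.4 to 49.3), BATF gave 37 and 137 reads and was 4.01-fold higher (2.77 to 5.94), and FOSL2 was at a log2 fold of 1.5.

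EGR2, a close relative of EGR1, was within 2-fold in the ovary (277 and 156 reads, ratio 0.610, interval 0.498 to 0.745) and lay under the floor in the other tissues, with 53 and 13 reads in the hypothalamus and 36 and 27 in the pituitary. EGR4 was over the floor in the hypothalamus alone, at a log2 fold of -0.41. NAB1, a corepressor of EGR proteins, was at -0.29 in the hypothalamus, -0.08 in the pituitary and -0.60 in the ovary. EGR3 had at most 13 reads in a library, and NAB2 was listed at 0 in each.

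NR4A2, the other NR4A receptor found by name, followed a different pattern from NR4A3. It gave 667 and 472 reads in the hypothalamus (ratio 0.730, interval 0.648 to 0.823) and 802 and 349 in the pituitary (0.461, 0.406 to 0.524). In the ovary, where NR4A3 was level, NR4A2 was 2.39-fold lower (1.86 to 3.09), from 225 and 87 reads.

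In the family of BTG2, TOB1 was the only other gene over the floor at least 2-fold different in any tissue. It was 2.76-fold lower in the ovary (2.49 to 3.06, from 1522 and 509 reads), with log2 folds of -0.12 in the hypothalamus and 0.09 in the pituitary. BTG1 was at -0.44, -0.26 and 0.01 in hypothalamus, pituitary and ovary. BTG3 and the deadenylase subunits CNOT7 and CNOT8, which the family binds, were within 2-fold throughout. BTG4, under the floor in every tissue, gave 29 and 2 reads in the ovary and was 13.4-fold lower there (3.4 to 116).

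Of the other transcription regulators, MAFF was lower in the hypothalamus (124 and 52 reads, log2 fold -1.19). In the pituitary CEBPD (-1.24), the neuronal activity factor NPAS4 (-1.23) and MAFF (-1.05) were lower, and MYC was 3.78-fold higher (170 and 607 reads, interval 3.19 to 4.51). In the ovary MAFF was higher (1.04, under 1 with equal totals), and CEBPD was at -0.85 and KLF10 at 0.71.

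Effector genes were lower at the median in the pituitary (-0.75 over 9 genes, 9 of 9 below 0), where 48.65% of all genes over the floor were below 0. Of the 9, 4 were at least 2-fold lower, against 1.90% of all pituitary genes. HOMER1, which encodes a scaffold of postsynaptic receptors, gave 366 and 66 reads there and was 5.23-fold lower (4.02 to 6.91). RGS2, a regulator of G protein signalling, gave 12370 and 5017 reads (log2 fold -1.22), and GADD45B and the clock gene PER1 were at -1.05 and -1.0. In the hypothalamus CYR61, a secreted matrix protein gene, was at -1.03 while HOMER1 was at 0.47. In the ovary PER1 (-1.67), CYR61 (-1.42) and RGS2 (-1.14) were lower, and CTGF (6902 and 22471 reads, 3.53-fold, 3.43 to 3.63) and BDNF (3 and 244 reads, 88.1-fold, 29.8 to 430) were higher.

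Feedback inhibitors, which shut the response off again, included the member of these lists with the lowest pituitary ratio. DUSP2, a phosphatase of MAP kinases, gave 2706 and 130 reads in the pituitary and was 19.6-fold lower (16.5 to 23.6). SPRY4 (-1.57) and TNFAIP3 (-1.04) were lower there too. DUSP2 and TNFAIP3 were also lower in the hypothalamus, at -1.02 and -1.06. DUSP1, another MAP kinase phosphatase, was at -0.05 in the hypothalamus, 0.18 in the pituitary and -1.07 in the ovary. In the ovary DUSP10 (2.13), DUSP5 (2.05) and ZFP36L2 (1.22) were higher. The rows named ZFP36 were listed at 0 in each library.

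Kinases and constitutive activators upstream of these genes stayed mostly within 2-fold. None of 17 over the floor was 2-fold different in the hypothalamus, where MAP2K1 was at 0.73 and MEF2A at 0.52. In the pituitary 1 of 17 was lower and none was higher, against 1.90% and 1.20% of all genes. The lower one was CREM, a cyclic AMP-responsive factor that is itself inducible (1942 and 485 reads, 3.78-fold lower, 3.42 to 4.18). SRF, which encodes serum response factor, was at 0.09, 0.01 and -0.12 in hypothalamus, pituitary and ovary. In the ovary 3 of 18 were higher, against 12.3% of all genes: the ribosomal S6 kinase genes RPS6KA1 (2.16) and RPS6KA3 (1.12), and ELK3 (1.00). With equal totals RPS6KA1 alone was higher and 1 gene, RPS6KA5, was lower.

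**Figure D4:**
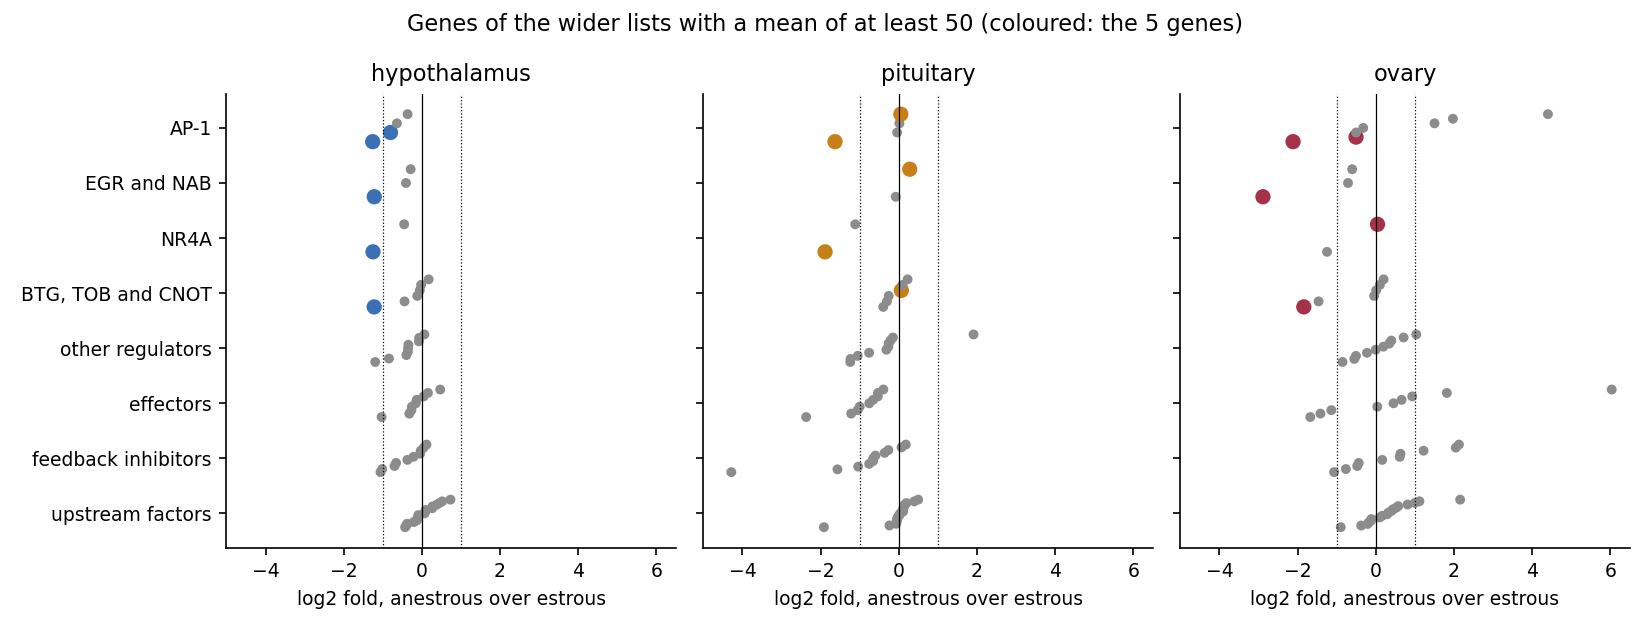
Log2 fold (pseudocount 1) of each gene over the floor in the lists by role, in rows, for each tissue, with the 5 genes in large coloured points, other genes in small grey points and dotted lines at 2-fold. In the pituitary grey points of the effector and feedback rows lie mostly below 0, with DUSP2 at -4.29, while in the ovary they lie on both sides, with BDNF at 6.04.

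The annotation in the deposited tables differed widely in depth among the 5 genes. FOS was placed in 26 pathways, among them MAPK, cyclic AMP, estrogen, prolactin and oxytocin signalling. EGR1 was placed in 3, and ATF3, NR4A3 and BTG2 in 1 each. BTG2 was in the RNA degradation pathway. FOS, EGR1 and ATF3 shared the pathway for HTLV-I infection, and EGR1, ATF3 and BTG2 shared the term for skeletal muscle cell differentiation. NR4A3 carried 0 gene ontology terms.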

How the data were processed

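Per the labels' protocols, Trizol was used on frozen tissue and the library kit was Illumina's TruSeq RNA kit. TopHat2 2.1.0 is named per the submitters' processing notes. The counter, genome build, annotation release and use of strand are not given in the sources used here. Genes that overlap others are therefore uncertain, and no coordinates or sequences are printed. Per the file headers, each tissue's table holds the deposited signal of both libraries, counts of reads after division by a size factor, and the authors' adjusted p-value. DESeq is named per the labels. Dividing a column by its smallest value above 0 gave whole reads for 100% of values (tolerance 0.01 read), and these recovered reads were used for intervals. The tables named 12762 genes, and gene identifiers matched to Ensembl names brought this to 14419.

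Folds are ratios of normalised counts, with 95% Clopper-Pearson intervals of the split of recovered reads between both libraries (an exact conditional binomial interval). Ratios of ratios carry exact conditional odds ratio intervals. No molecular identifiers are described, so reads are not independent molecules and intervals cover counting error only. The log2 folds have a pseudocount of 1, which understates differences of low genes. The 5 genes and all lists were chosen with earlier results of these data known. Named were, per list and tissue, the 3 genes over the floor with the largest absolute log2 fold, and the 3 named genes nearest to each member over the 3 folds. TOB1 outside the ovary, JUN, JUNB, FOSL2, EGR3, NAB2, BTG1 and BTG4 were named after their values were seen. So were SRF, DUSP1, ZFP36, the astrocyte markers and further genes of a count. The lists hold 194 genes, of which 29 had no row by name and are not analysed here. The folds were recomputed with library totals made equal, with edgeR-style trimmed means (trimming 30% by ratio and 5% by level) and with 5 as the pseudocount. Counts were repeated without the floor, with 200 as the floor and with only genes at an adjusted p of 0.05 or less in the authors' table. A further alternative was a count test on recovered reads with tissue as a block (edgeR 4.0.16 and DESeq2 1.42.0 in R 4.3.3). Other totals for the levels were added after the data were seen. Python 3.11.15 and scipy 1.17.1 were used.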

Additional observations from a re-analysis of the deposited data

Results flagged for a closer look

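EGR1 differed in direction between tissues, with counting intervals on opposite sides of equal levels: its ratio of anestrous to estrous was 1.21 (1.14 to 1.29) in the pituitary, 0.429 (0.367 to 0.500) in the hypothalamus and 0.135 (0.129 to 0.141) in the ovary. Its log2 fold in the hypothalamus minus that in the pituitary was -1.497, and its log2 fold in the pituitary minus that in the ovary was 3.17. The pituitary ratio was inside the 2-fold limit and was 1.12 (1.06 to 1.19) with equal totals. The pituitary log2 fold of EGR1, 0.28, lay between the 5th and 95th percentiles of pituitary genes over the floor (-0.68 and 0.57). With 1 library in each group the differences between tissues were not tested.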

How the results depend on the processing

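All 45 log2 folds of the 5 genes under another scaling or pseudocount kept their direction except 3, each near 0, with equal library totals: FOS (-0.06) and BTG2 (-0.05) in the pituitary and NR4A3 in the ovary (-0.15). In size, 7 of the 45 moved outside their counting interval, all in pituitary or ovary with equal totals. Of 10 ranges of level, highest over lowest library, recomputed with the other totals, 6 lay outside the counting interval of the main range. The counts of 4, 2 and 3 genes at least 2-fold lower in hypothalamus, pituitary and ovary were the same under each scaling, the pseudocount of 5 and no floor. With a floor of 200 the counts were 2 in the hypothalamus and 0 in the pituitary, since ATF3 and NR4A3 lie under it there, and 3 in the ovary. Among genes at an adjusted p of 0.05 or less in the authors' deposited table they were 1, 1 and 0. The same 2-fold rule over all genes gave 877 lower and 845 higher in the hypothalamus with no floor, 29 and 75 with a floor of 200, and 31 and 67 with the authors' adjusted p. In the pituitary these were 1139 and 965, 84 and 48, and 50 and 36, and in the ovary 2223 and 2534, 501 and 880, and 15 and 92. The median of the wider lists in the ovary was -0.02 with a floor of 200.

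By fold alone, 16 genes passed the 2-fold rule in 1 direction in every tissue. A count test that takes the 3 tissues for replicates, although they are none, called 0 of 14444 genes in edgeR (542 at an unadjusted p under 0.05) and 46 of 16887 in DESeq2 (556 at an unadjusted p under 0.05), with no member among them: ATF3 had the smallest adjusted p of the 5, 0.986 in edgeR (as had the others) and 0.286 in DESeq2. Depth limits NR4A3 and ATF3 most, with 52 to 285 reads outside the ovary, and NR4A3 also in the ovary, with 84 and 80 reads.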
